A study of Mus musculus with 6 samples.

Results

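The ZnF4 mutant step from Hardy fraction B to fraction C was described from 2 of the 6 RNA sequencing libraries, both made from proB cells of the bone marrow of mice with the genotype Ikaros ZnF4-/-. Ikaros, encoded by Ikzf1, is a zinc finger transcription factor needed for lymphocyte development, and ZnF4 is 1 of the fingers of its DNA-binding domain. The other 4 libraries came from wild-type mice (wt) and from Ikaros ZnF1-/- mice, with 1 library of each fraction. All mice had the C57BL/6 background and were aged 6 to 7 weeks, and no treatment was given. Fraction B was sorted on its own, whereas fractions C and C' were pooled and are called fraction C here. The labels do not say how many animals entered a library. The step is the log2(RPKM + 1) value of fraction C minus that of fraction B, where RPKM is reads scaled by transcript length and by the reads of the library. It was taken for the 10943 gene symbols whose RPKM averaged at least 1 across the 6 libraries. With 1 library a side there is no replicate check, so no p-value is given and "higher" or "lower" refers to this pair of libraries. Fold sizes are on the log2(RPKM + 1) scale, on which changes of lowly expressed genes come out smaller than they are.

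In the bone marrow, proB cells rearrange the immunoglobulin heavy chain gene, and cells in which this succeeds display the preB cell receptor (preBCR) and divide several times before light chain rearrangement. Hardy's scheme orders these cells by surface markers. BP-1, the aminopeptidase encoded by Enpep, appears at the passage from fraction B to fraction C, and fraction C' holds large cycling cells. Dividing cells make the transcripts of DNA replication and of mitosis in successive waves, and many mitotic genes share a promoter architecture of a cell cycle homology region (CHR) and upstream CCAAT boxes.

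The promoters of 4 mitosis genes are shown with that of Enpep, the sort marker, because these genes carry the main contrast of the step. Each of the 4 had both motifs in the window and a ZnF4 step above the mitosis median. They are examples, since not every chromosome entered the choice, and some mitosis genes with larger ZnF4 steps are not shown. Each line gives the 150 bases before the start site from RefSeq, read 5′ to 3′ on the gene's strand, with GRCm38.p6 coordinates; the expression values were made on mm9. Capitals mark the CHR letters TTTGAA and the CCAAT box on either strand.
Cdk1 (chr10:69352913-69353062, minus strand): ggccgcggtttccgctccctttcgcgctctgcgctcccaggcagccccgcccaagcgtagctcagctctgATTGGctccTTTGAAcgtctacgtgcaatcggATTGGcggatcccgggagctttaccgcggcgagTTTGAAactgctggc
Cdc20 (chr4:118437344-118437493, minus strand): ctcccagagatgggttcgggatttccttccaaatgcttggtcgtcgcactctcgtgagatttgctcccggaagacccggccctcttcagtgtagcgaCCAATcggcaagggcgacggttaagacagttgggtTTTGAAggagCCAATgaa
Kif11 (chr19:37376232-37376381, plus strand): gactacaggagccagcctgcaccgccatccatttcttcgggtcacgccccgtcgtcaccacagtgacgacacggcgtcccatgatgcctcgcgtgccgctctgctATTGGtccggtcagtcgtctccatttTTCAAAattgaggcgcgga
Top2a (chr11:99024190-99024339, minus strand): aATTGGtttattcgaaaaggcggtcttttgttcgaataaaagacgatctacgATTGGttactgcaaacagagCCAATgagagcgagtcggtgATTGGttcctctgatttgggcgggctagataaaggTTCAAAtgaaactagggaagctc
Enpep (chr3:129332750-129332899, minus strand): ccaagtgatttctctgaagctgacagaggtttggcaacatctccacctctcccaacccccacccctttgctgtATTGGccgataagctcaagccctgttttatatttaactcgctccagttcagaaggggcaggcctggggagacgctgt
Cdk1 encodes the kinase that drives entry into mitosis, Cdc20 the activator of the anaphase-promoting complex, Kif11 a spindle motor and Top2a a topoisomerase that untangles chromosomes. A match is only a description of letters in a window and shows no binding. Over the longer window of 250 bases before to 50 after the start, CHR letters were found in 38 of the 53 mitosis genes with a listed promoter (71.7%), in 5 of 43 replication genes (11.6%) and in 11.9% of the 8723 genes kept that had one. CHR and CCAAT letters occurred together in 60.4% of mitosis promoters, 9.3% of replication promoters and 5.04% of those of all genes kept. The E2F motifs TTTCCCGC, TTTCGCGC, TTTGCCGC and TTTGGCGC were found in 7.55% of mitosis promoters, 32.6% of replication promoters and 4.46% of all. Of all 27025 symbols in the promoter table, 18.1% held the CHR letters, 37.9% the CCAAT box and 2.32% an E2F motif. All motifs were searched on both strands, and matches of different motifs may share bases at their ends.

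Enpep checked the sort in all genotypes. It stood at 1.1 RPKM in the ZnF4 fraction B library and 43.1 in ZnF4 fraction C, against 3.5 and 56.6 in wt and 2.3 and 20.2 in ZnF1. Enpep was low in every fraction B library and high in every fraction C library, and its ZnF4 step of 21.0-fold was the largest among the genes that the naming rule allowed. The size rests on the low fraction B value, and the log2 step was 4.39 as given and 5.0 with a pseudocount of 0.25. Ikzf1 itself was at 431.6 and 425.1 RPKM in ZnF4 fractions B and C and at 150.3 and 169.4 in wt, so the ZnF4 libraries lay above wt in both fractions and nearly level with each other. Values per transcript do not resolve the mutated finger and do not check the genotype. Xist was at 81.3 and 91.9 RPKM in the wt libraries and listed at 0 in all mutant libraries, and the Y-linked Eif2s3y was listed at 0 in wt and at 34.4 to 55.1 RPKM in the mutants. Each step compares libraries of 1 sex, but a difference between the ZnF4 and wt steps cannot be told apart from one of sex. RPKM values carry no depth, which is therefore unknown, and 10342 genes reached 1 RPKM in the ZnF4 fraction B library and 10502 in ZnF4 fraction C. The ZnF1 fraction C library stood apart by its myeloid RNA (a summed level of 46602.3 RPKM over 24 markers), and ZnF1 values are therefore printed only beside those of ZnF4 and wt.

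The ZnF4 step held more genes that were higher in fraction C than lower. At 2-fold, 298 genes (2.72% of 10943) were higher and 64 (0.585%) lower, whereas in wt 37 (0.338%) were higher and 110 (1.01%) lower. At 1.5-fold, 1256 genes (11.5%) were higher and 368 (3.36%) lower in ZnF4, against 515 (4.71%) and 482 (4.4%) in wt. These shares of all genes are the ones to set beside the 1.5-fold counts of the gene lists below. Of the 2-fold calls in ZnF4, 82.3% were on the higher side, and this share was 63.2% after rescaling the libraries to a common median ratio and 66.9% after rescaling to a common upper quartile. Over all genes kept, the median step was 0.11 in ZnF4 and 0.06 in wt, and the median rescaling moved the ZnF4 median to -0.01.

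The direction of the ZnF4 step followed the wt step only in part. Across 10943 genes, Pearson's r between the ZnF4 and wt steps was 0.465 and Spearman's rho 0.499, and r between the ZnF4 and ZnF1 steps was 0.088. Genes are not independent replicates, and these steps share no library. Of the 298 genes at least 2-fold higher in ZnF4, 8 were so in wt (2.68% of the ZnF4 list and 21.6% of the wt list). Of the 64 that were lower, 20 were so in wt (31.2% of the ZnF4 list and 18.2% of the wt list). At 1.5-fold, 220 genes were higher in both (17.5% of the ZnF4 list and 42.7% of the wt list). At that size 149 were lower in both (40.5% and 30.9%). The lists differ in length, so their shares set no order between the directions.

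**Figure D1:**
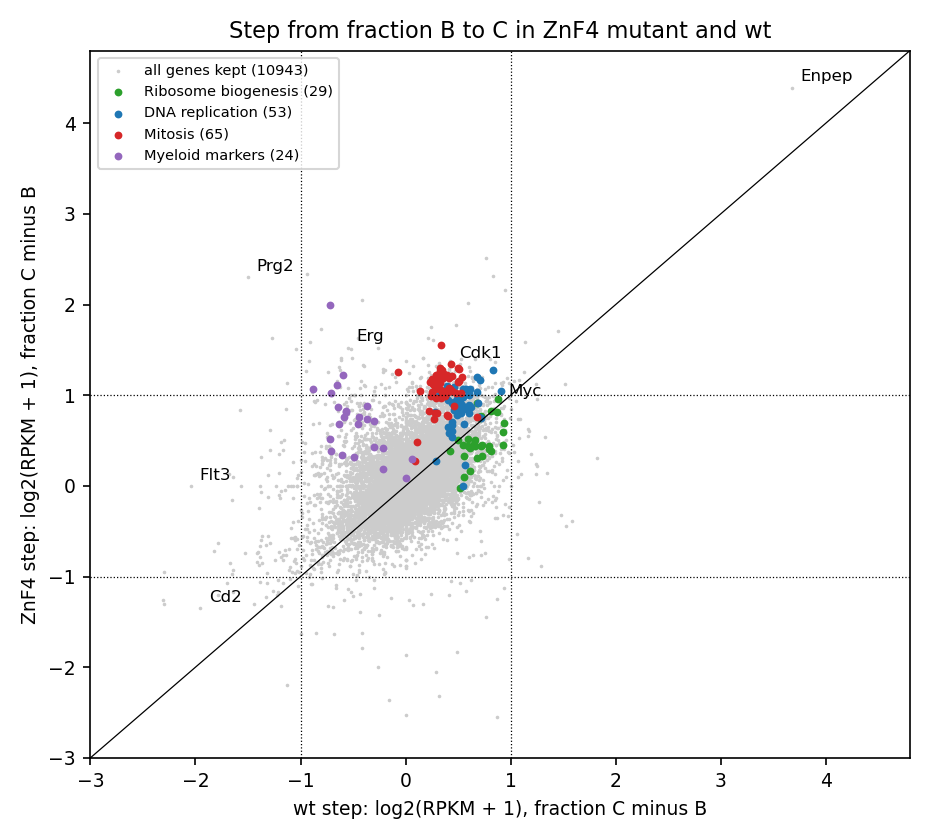
Each point is 1 of 10943 genes, with its wt step on the x axis and its ZnF4 step on the y axis, both as log2(RPKM + 1) of fraction C minus fraction B. The diagonal marks equal steps and dotted lines mark 2-fold. Mitosis genes (red) lie above the diagonal, ribosome biogenesis genes (green) mostly below it, and myeloid markers (purple) above 0 in ZnF4 and mostly below 0 in wt.

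Mitosis genes made up the largest listed group of the 2-fold calls: of the 298 genes higher in ZnF4 fraction C, 51 were on the mitosis list, 17 on the DNA replication list and 3 on the list of G1-S regulators. All 65 mitosis genes were kept. In ZnF4, 63 of the 65 were at least 1.5-fold higher in fraction C and none was lower at that size, with a median of 2.18-fold, and single steps ran from 0.28 to 1.55 on the log2 scale. In wt, the step was above 0 for 64 of the 65 with a median of 1.26-fold, and 1 of the 65 was at least 1.5-fold higher. In ZnF1 the count was 1 of 65, where 15.3% of all genes were that much higher, and the median was 1.02-fold.

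The kinase Cdk1 stood at 26.3 RPKM in ZnF4 fraction B and 68.3 in ZnF4 fraction C, against 46.7 and 63.4 in wt and 56.2 and 66.0 in ZnF1. The 3 fraction C libraries were close to each other, and the ZnF4 fraction B library was the lowest of all 6, so that the ZnF4 step was 2.54-fold and the wt step 1.35-fold. Top2a was at 146.2 and 337.3 RPKM in ZnF4, 228.3 and 290.6 in wt and 303.1 and 265.4 in ZnF1. Mki67, which encodes the proliferation antigen Ki-67 that coats mitotic chromosomes, was at 104.5 and 225.7 RPKM in ZnF4, 166.3 and 206.2 in wt and 201.7 and 232.0 in ZnF1. For both genes the ZnF4 fraction B library was again the lowest of the 6, and for Top2a the ZnF4 fraction C library was the highest. The kinase gene Aurka, needed for spindle poles, was at 21.9 and 55.5 RPKM in ZnF4 and 35.3 and 50.4 in wt. Cdc20 was at 18.0 and 43.3 RPKM in ZnF4 and 25.7 and 32.7 in wt, and Kif11 at 41.3 and 96.9 in ZnF4 and 59.3 and 75.2 in wt. In each of these 3 genes both wt libraries lay between the ZnF4 libraries.

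The same order held through the functional groups of mitosis. Of the 12 cyclins, mitotic kinases, phosphatases and their transcription factors, 11 were at least 1.5-fold higher in ZnF4 fraction C (median 2.24-fold, against 1.31-fold in wt). All 15 kinetochore and spindle checkpoint genes reached 1.5-fold (2.17-fold against 1.22-fold), as did all 12 spindle motors and microtubule binding genes (2.25-fold against 1.25-fold). So did all 8 cytokinesis genes (2.22-fold against 1.22-fold), all 4 genes of the chromosome passenger complex (2.07-fold against 1.32-fold) and all 8 for chromosome condensation and the chromosome surface (2.03-fold against 1.27-fold). Of the 6 genes of anaphase entry, 5 did (2.08-fold against 1.28-fold). The groups therefore differed little among themselves, with ZnF4 medians from 2.03-fold to 2.25-fold.

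The largest step on the list was that of Ccnb1, which encodes the cyclin B1 partner of Cdk1. It stood at 1.9 RPKM in ZnF4 fraction B and 7.5 in ZnF4 fraction C (2.93-fold), and at 6.9 and 9.0 in wt, levels that are low for the list. Nuf2, a kinetochore subunit that holds microtubules, was at 17.1 and 43.6 RPKM in ZnF4 and at 35.4 and 44.8 in wt, and Birc5, the survivin subunit of the passenger complex, was at 32.3 and 80 in ZnF4 and 53.3 and 68.2 in wt. For Nuf2 the fraction C libraries of both genotypes were level, whereas for Birc5 the ZnF4 library was the higher. The 2 mitosis genes under 1.5-fold in ZnF4 were Cdc25b, a phosphatase that activates Cdk1 (79.5 and 111.7 RPKM), and Pttg1, the securin that holds back separase (15.5 and 19.0 RPKM). Mybl2, a transcription factor of mitotic genes, was the 1 gene at least 1.5-fold higher in wt, with 16.6 and 27.2 RPKM in wt and 10.2 and 18.0 in ZnF4. Its ZnF4 and wt steps of 1.70-fold and 1.60-fold were nearly equal. Fam64a, a gene of the metaphase to anaphase transition, departed most from wt, with 21.0 and 51.5 RPKM in ZnF4 and 39.7 and 37.6 in wt.

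The departure of the ZnF4 step from the wt step, taken as the ZnF4 step minus the wt step, was above 0 for 65 of 65 mitosis genes, with a median of 0.79 against 0.05 over all genes. It reached 1.5-fold for 54 of 65, where 8.64% of all genes departed upward and 2.82% downward by that much. At 2-fold, 260 of all genes (2.38%) departed upward and 58 (0.53%) downward, and 2 of them were mitosis genes, Ccnb1 and Fam64a. Levels within each fraction show where the wider step lay. In fraction B, 65 of 65 mitosis genes were lower in ZnF4 than in wt (55.8% of all genes were), with a median difference of -0.64. In fraction C, 42 of 65 were higher in ZnF4 than in wt (45.4% of all genes were), with a median difference of 0.11. All of these 42 genes were thus below wt in fraction B and above wt in fraction C, as 9.69% of all genes were. Summed over the list, the level was 3181.6 and 4045.7 RPKM in wt fractions B and C, 2043.4 and 4346.1 in ZnF4 and 3607.2 and 3708.2 in ZnF1. The ZnF4 sums were the lowest and the highest of the 6. Levels within a fraction were not recomputed under the 2 rescalings, so the small excess over wt in fraction C was not checked against scaling. In bulk samples, fewer cells in mitosis and less of this RNA per cell cannot be told apart. The labels do not give the mix of fractions C and C' in each pool, and its part in the step was not tested.

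**Figure D2:**
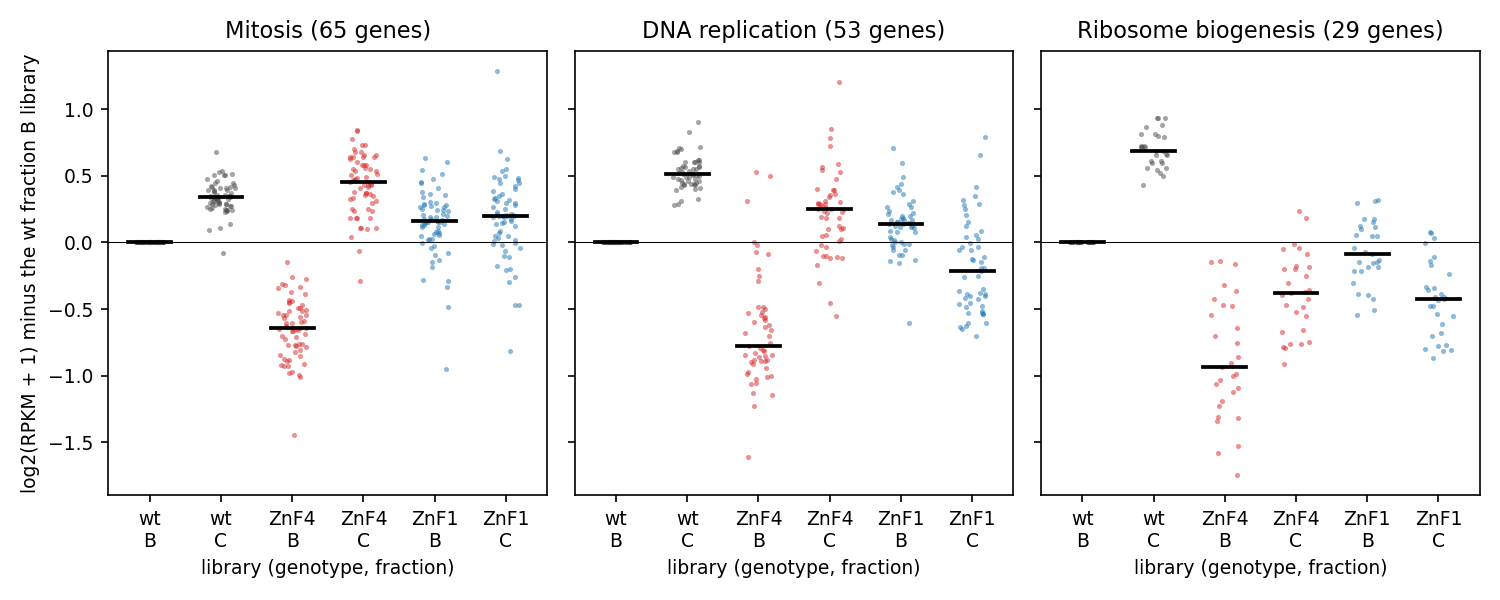
Each point is a gene of the named list in 1 library, as its log2(RPKM + 1) minus that in the wt fraction B library on the y axis, and bars are medians. The ZnF4 fraction B library sits lowest for all 3 lists; in ZnF4 fraction C the mitosis genes reach the wt fraction C level, while the replication and ribosome biogenesis genes stay below it.

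DNA replication genes were higher in fraction C in both genotypes, and the ZnF4 step exceeded the wt step by less than it did for mitosis. All 53 replication genes were kept. Of these, 49 were at least 1.5-fold higher in ZnF4 fraction C (median 1.89-fold) and 14 in wt fraction C (median 1.42-fold), and none was lower at that size in either. The departure had a median of 0.41 and reached 1.5-fold for 6 genes. In fraction B, 49 of 53 were lower in ZnF4 than in wt (median -0.78), and in fraction C 48 of 53 were still lower (median -0.32). The summed level was 1718.7 and 3178.2 RPKM in ZnF4, 2775.1 and 4027.6 in wt and 3067.5 and 2389.9 in ZnF1. The 2 cell cycle lists therefore ended differently in ZnF4 fraction C: the mitosis sum lay slightly above the wt fraction C sum and the replication sum below it. In ZnF1 the replication median went the other way, at -0.37.

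Among the roles within replication, 11 of 12 origin licensing genes, 4 of 5 helicase activation genes and 8 of 9 polymerase and primase genes were at least 1.5-fold higher in ZnF4 fraction C. The counts were 13 of 14 for the clamp, clamp loader, single-strand binding and fragment joining genes, 6 of 6 for nucleotide supply and 7 of 7 for fork protection and chromatin copying. Gins1, a subunit of the replicative helicase, had the largest step, from 11.3 to 28.8 RPKM in ZnF4 (2.42-fold) and from 23.4 to 42.4 in wt (1.78-fold). Gmnn, the licensing inhibitor geminin, was at 32.3 and 75.6 RPKM in ZnF4 and 61.8 and 99.4 in wt. For both genes the ZnF4 library was below the wt library of the same fraction. Dna2, a nuclease that trims Okazaki fragments, departed most, with 6.7 and 15 RPKM in ZnF4 and 22.5 and 28.5 in wt.

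The 4 replication genes under 1.5-fold in ZnF4 were Pold1, Cdt1, Gins4 and Rfc1. Pold1, the catalytic subunit of polymerase delta, was level between the ZnF4 fractions at 110.8 and 110.6 RPKM, and stood at 76.4 and 112.2 in wt, so the ZnF4 fraction B library already had the level that wt reached in fraction C. The licensing factor gene Cdt1 was at 28.9 and 34.2 RPKM in ZnF4 and 23.1 and 34.7 in wt, again with the ZnF4 fraction B library above wt. Gins4, another helicase subunit, was at 20.6 and 25.2 RPKM in ZnF4 and 31.3 and 38.5 in wt, with equal steps of 1.21-fold and 1.22-fold. Rfc1, the large subunit of the clamp loader, was at 37.5 and 55.1 RPKM in ZnF4, 1.46-fold apart.

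Regulators of the G1 to S transition were mixed. Of 24 kept of 27 listed, 12 were at least 1.5-fold higher and 1 lower in ZnF4 (median 0.59), against 3 and 1 in wt (median 0.36). Ccnd2, the D-type cyclin that responds to growth signals, was at 25.1 and 61.2 RPKM in ZnF4 and 36.7 and 81.6 in wt, and its steps of 2.38-fold and 2.19-fold were alike. The E-type cyclin genes stepped further in ZnF4: Ccne2 was at 7.2 and 17.1 RPKM against 26.4 and 36.6 in wt, and Ccne1 at 9.6 and 21.5 against 24.3 and 38.1. Both stayed below wt in each fraction. Cdkn1b, the inhibitor p27, was 1.42-fold lower in ZnF4 fraction C (59.2 and 41.3 RPKM) and 1.37-fold lower in wt fraction C (52.8 and 38.4 RPKM). The inhibitor gene Cdkn1a, a p53 target, was at 6.9 and 10.3 RPKM in ZnF4 but at 31.0 and 23.5 in wt, so the steps pointed in opposite directions. The E2F factor gene E2f2 was level in both, at 141.8 and 143.3 RPKM in ZnF4 and 110.6 and 109.4 in wt. Histone genes are hardly covered, since 8 of 24 were kept (3 of them at least 1.5-fold higher and 1 lower in ZnF4 fraction C) and the replication-dependent histones have near-identical copies that make their values uncertain.

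Ribosome biogenesis genes departed in the other direction. Of 29 kept, 8 were at least 1.5-fold higher in ZnF4 fraction C and 23 in wt fraction C, with medians of 1.36-fold and 1.61-fold, and none was lower at that size. The departure was below 0 for 23 of 29 genes (median -0.22), and reached 1.5-fold for none. All 29 genes were lower in ZnF4 than in wt in both fractions, by medians of -0.93 in B and -1.03 in C. The sum was 438.2 and 633.8 RPKM in ZnF4 and 852.4 and 1423.0 in wt, so the ZnF4 fraction C library stayed under the wt fraction B library. Ncl, the nucleolar protein nucleolin, was at 37.8 and 65.2 RPKM in ZnF4 and 111.1 and 183.5 in wt, with steps of 1.71-fold and 1.65-fold. Polr1a, the large subunit of RNA polymerase I, was level in ZnF4 at 15.1 and 14.9 RPKM and was at 17.0 and 24.8 in wt. Nhp2, a subunit of small nucleolar ribonucleoproteins, was at 22.0 and 30.4 RPKM in ZnF4 and 42.9 and 82.6 in wt.

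Myc, the growth regulator that drives ribosome and metabolic genes, was at 5.5 and 11.3 RPKM in ZnF4 and 48.7 and 91.7 in wt. Its level was far lower in both ZnF4 libraries, while its ZnF4 and wt steps of 0.92 and 0.90 on the log2 scale were nearly the same. The 11 genes kept of the Myc network had a median step of -0.12 in ZnF4 and 0.01 in wt, and the sign of the wt median flipped under both rescalings. For glycolysis, 3 of 18 genes were at least 1.5-fold higher in each genotype (medians 0.27 and 0.38 in ZnF4 and wt), where 11.5% and 4.71% of all genes were. Among them, Ldha, lactate dehydrogenase A, was at 13.3 and 31.6 RPKM in ZnF4 and 44.7 and 88.5 in wt, a step of 2.28-fold and 1.96-fold. Genes of the respiratory chain had medians of 0.43 and 0.36, with 4 and 1 of 25 genes at least 1.5-fold higher, near the shares of all genes.

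**Figure D3:**
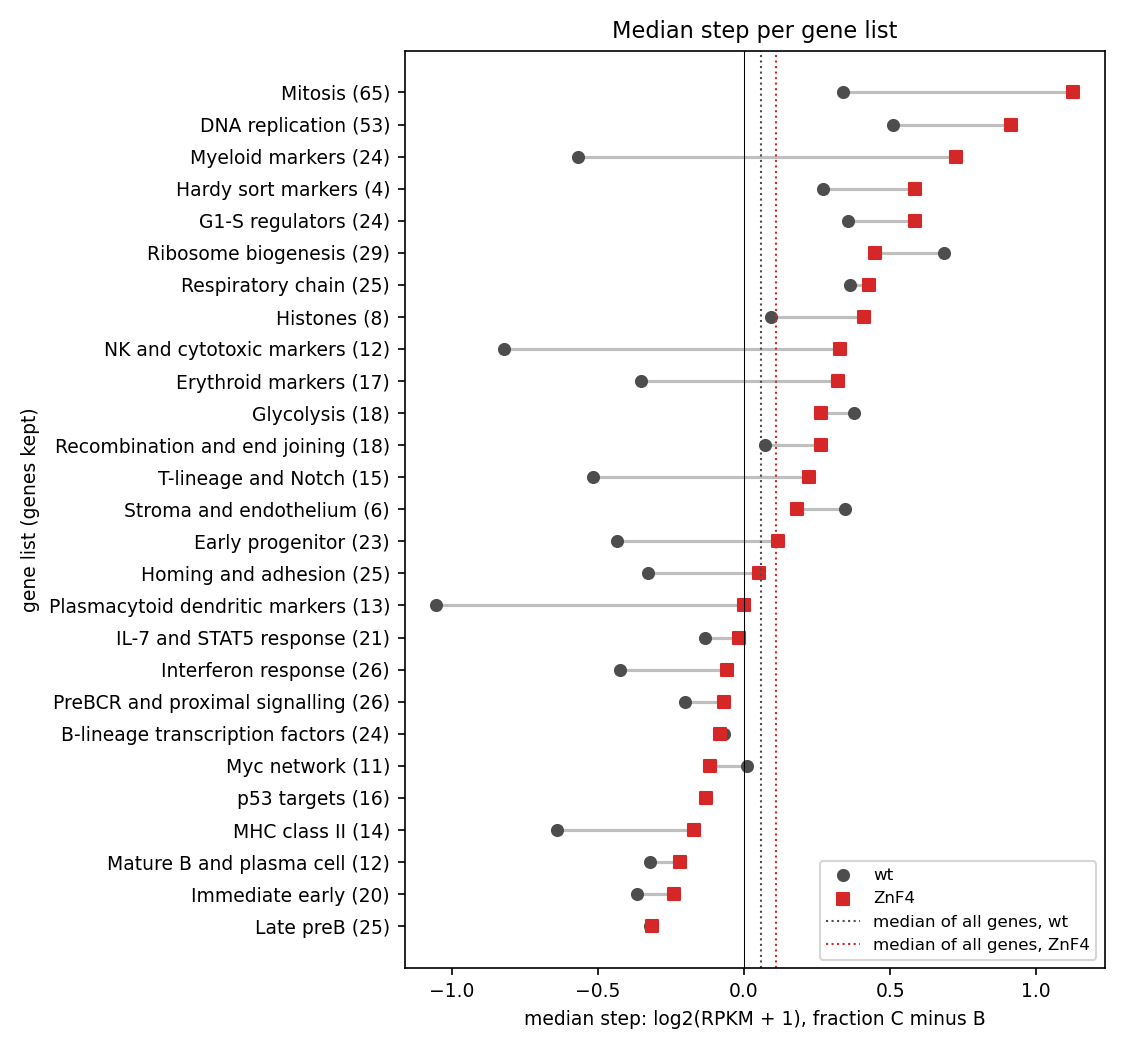
The median step of each gene list is plotted on the x axis as log2(RPKM + 1) of fraction C minus fraction B, for ZnF4 (red squares) and wt (grey circles), with the number of genes kept in brackets and dotted lines at the medians of all genes. Mitosis has the highest ZnF4 median (1.13) and a wt median of 0.34, and late preB genes have the lowest ZnF4 median, next to that of wt.

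Among the sort markers other than Enpep, Cd24a, the heat-stable antigen used to order the fractions, was at 155.7 and 234.1 RPKM in ZnF4 and 130.1 and 205.6 in wt, higher in fraction C in both. Spn, the leukosialin CD43 that marks proB cells, was at 49.9 and 75.5 RPKM in ZnF4 and 82.3 and 76.1 in wt. The ZnF4 fraction B library was low for Spn, and the fraction C libraries of ZnF4 and wt were level. Ptprc, which encodes the B220 and CD45 antigen, was at 92.9 and 83.3 RPKM in ZnF4 and 85.2 and 67.0 in wt.

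Genes of the late preB stage were lower in fraction C in ZnF4, as they were in wt. Of 25 kept, 8 were at least 1.5-fold lower and none higher in ZnF4, against 9 lower and 2 higher in wt, with medians of -0.32 in both. The median departure was 0.04, and its sign flipped under the median rescaling. Cd2, an adhesion receptor of preB cells, was at 47.8 and 18.2 RPKM in ZnF4 and 38.1 and 9.1 in wt. Il2ra, the CD25 antigen that marks small preB cells, was at 12.1 and 4.7 RPKM in ZnF4 and 24.5 and 6.4 in wt. Ms4a1, the CD20 antigen of B cells, was at 39.5 and 18.9 RPKM in ZnF4 and 15.1 and 6.5 in wt. In all 3 genes fraction C was the lower library in both genotypes. Cd40, a co-stimulatory receptor, was at 66.1 and 33.1 RPKM in ZnF4 and 7.8 and 1.8 in wt, a ZnF4 step of 1.97-fold downward.

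Some later-stage genes were higher in fraction C in wt but not in ZnF4. Cd22, an inhibitory co-receptor of B cells, stood at 32.4 and 59.8 RPKM in wt and already high at 119.5 and 108.4 in ZnF4, a departure of -1.0 on the log2 scale. Tnfrsf13b, the receptor TACI, was at 5.4 and 9.0 RPKM in wt and 28.3 and 22.8 in ZnF4. Both genes were higher in wt fraction C than in wt fraction B, and slightly lower in ZnF4 fraction C than in ZnF4 fraction B. For MHC class II genes, 8 of 14 were at least 1.5-fold lower in wt fraction C and 1 of 14 in ZnF4 fraction C, with medians of -0.64 and -0.17. The class II chain gene H2-Aa was at 175.6 and 182.4 RPKM in ZnF4 and 56.2 and 33.0 in wt, and the invariant chain gene Cd74 at 692.8 and 473.1 in ZnF4 and 172.7 and 66.6 in wt.

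The recombination machinery differed gene by gene. Rag1, the recombinase that cuts antigen receptor genes, was at 120.1 and 67.5 RPKM in ZnF4 and 225.5 and 94.8 in wt, lower in fraction C in both. Its partner Rag2 was at 18.1 and 14.4 RPKM in ZnF4 and 44.5 and 29.6 in wt. Dntt, the polymerase TdT that adds bases at heavy chain junctions, was at 18.7 and 25.7 RPKM in ZnF4 and 568.7 and 335.4 in wt, so it was slightly higher in ZnF4 fraction C and lower in wt fraction C. Polm, the related polymerase mu, was at 185.7 and 111.0 RPKM in ZnF4 and 45.6 and 16.5 in wt. H2afx, the histone variant that marks DNA breaks, was at 90.0 and 176.0 RPKM in ZnF4 and 111.0 and 128.1 in wt. The end joining genes had no common direction in ZnF4: Xrcc5, the Ku80 subunit, was at 7.3 and 13.3 RPKM, its partner Xrcc6, the Ku70 subunit, at 153.9 and 130.2, and Nhej1, a ligation cofactor, at 11.5 and 7.8. Over the 18 genes, 4 were at least 1.5-fold higher and 2 lower in ZnF4, where 11.5% and 3.36% of all genes were. In wt 1 was higher and 3 were lower, where 4.71% and 4.4% of all genes were.

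Genes of the preBCR and its signalling had no common direction in ZnF4. Vpreb2, a surrogate light chain gene, was at 11.9 and 28.6 RPKM in ZnF4 and 28.7 and 31.9 in wt. Igll1, the other surrogate light chain part called lambda5, was at 1049.9 and 1396.2 RPKM in ZnF4 and 639.9 and 724.9 in wt, and Vpreb1 at 169.8 and 212.5 in ZnF4 and 143.5 and 143.7 in wt. Vpreb1 and Vpreb2 are close copies, so reads may be shared between them. Cd79b, the signalling chain of the receptor, was at 1277.2 and 986.2 RPKM in ZnF4 and 622.3 and 396.8 in wt, and the kinase Syk, listed as Sykb, at 555.0 and 373.0 in ZnF4 and 288.8 and 178.8 in wt. Both were lower in fraction C in both genotypes. Other signalling genes had higher values in ZnF4 fraction C, among them the kinase gene Fyn at 14.9 and 19.5 RPKM and the tetraspanin gene Cd81 at 58.0 and 76.7. Over the 26 genes, 1 was at least 1.5-fold higher and 1 lower in ZnF4 (median -0.07), against 1 and 4 in wt (median -0.20). By that much, 11.5% of all genes were higher and 3.36% lower in ZnF4, and 4.71% and 4.4% in wt.

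B-lineage transcription factors had median steps of -0.08 in ZnF4 and -0.07 in wt. None of 24 was at least 1.5-fold higher and 2 were lower in ZnF4, where 11.5% and 3.36% of all genes were. In wt none was higher and 3 were lower, where 4.71% and 4.4% of all genes were. Klf2, a quiescence factor, was at 65.7 and 27.9 RPKM in ZnF4 and 20.2 and 8.1 in wt, a step of 2.31-fold and 2.33-fold downward. Pou2f2, the octamer factor Oct-2, was at 38.9 and 21.6 RPKM in ZnF4 and level in wt at 10.5 in both fractions. Foxo1, which drives Rag gene transcription, was at 54.0 and 35.9 RPKM in ZnF4 and 57.8 and 37.6 in wt. Klf2 and Foxo1 had nearly equal steps in both genotypes, whereas Pou2f2 was lower in fraction C in ZnF4 and not in wt. Pim2, a survival kinase on the list of interleukin-7 and STAT5 responses, was at 30.1 and 12.8 RPKM in ZnF4 and 11.3 and 4.3 in wt.

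**Figure D4:**
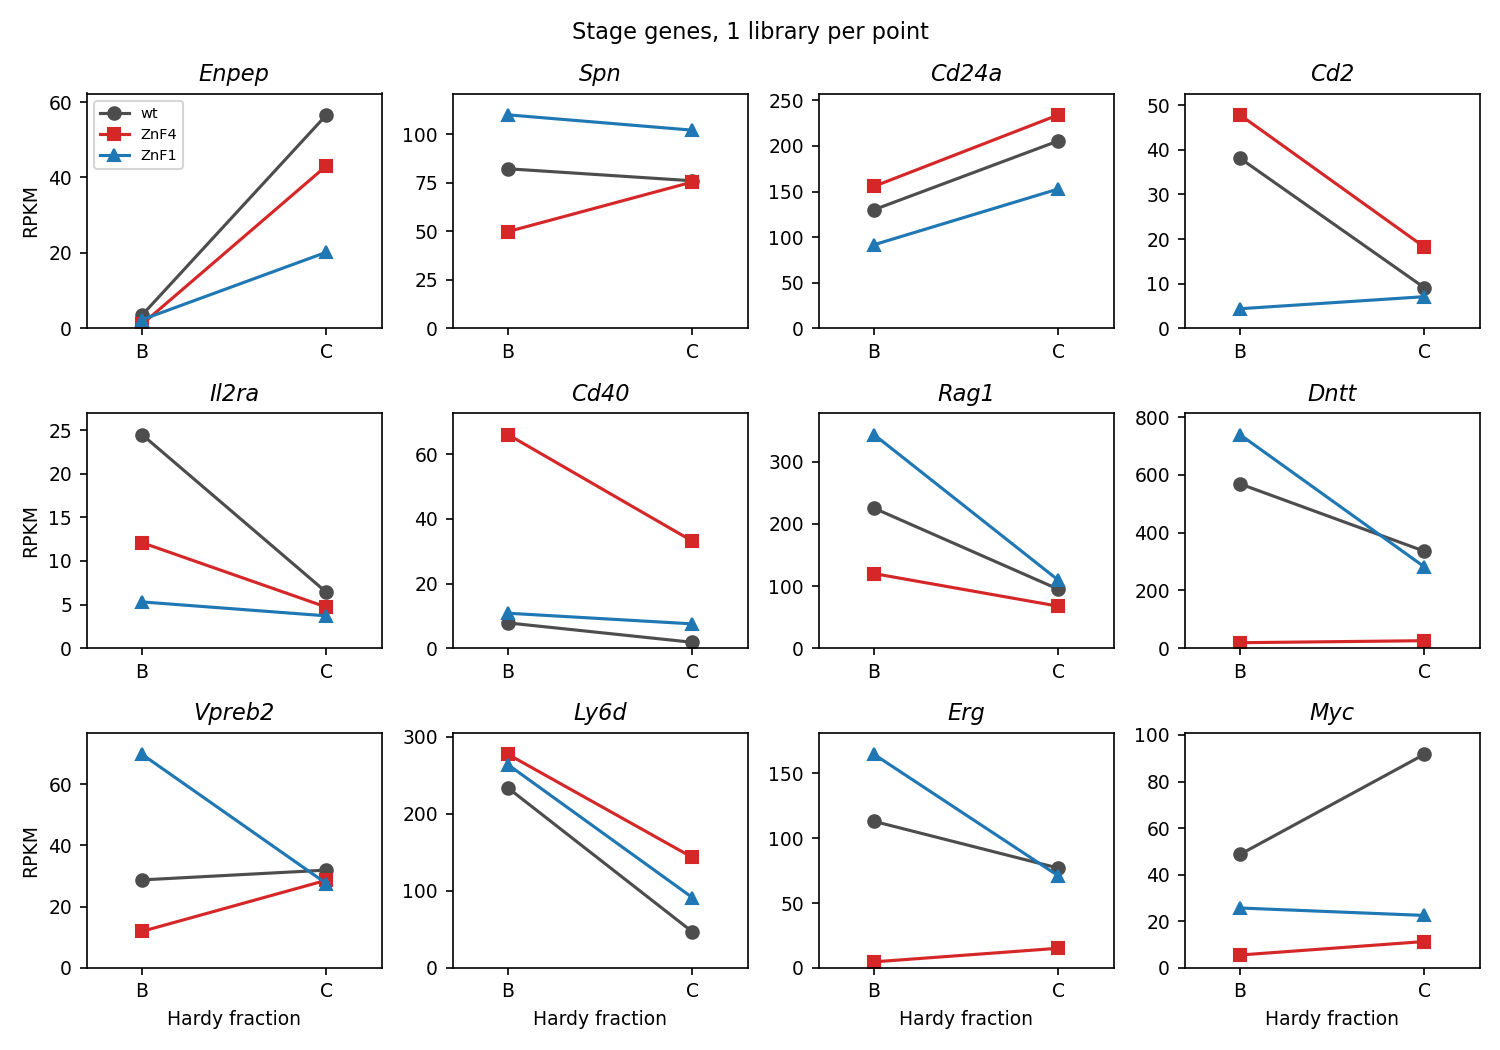
RPKM (y axis, from 0) of 12 stage genes in fractions B and C (x axis), with 1 library per point and lines joining the fractions of a genotype: wt grey, ZnF4 red, ZnF1 blue. Enpep is higher in fraction C in all 3 genotypes, Cd2 and Il2ra are lower in ZnF4 and wt fraction C, and Dntt and Erg stay low in both ZnF4 libraries.

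Early progenitor genes were mostly lower in wt fraction C and little changed in ZnF4, where many were near 0 in both fractions. Of the 26 listed genes, 14 were under 1 RPKM in ZnF4 fraction B against 4 in wt fraction B, and 23 were kept. Of these, 8 were at least 1.5-fold lower in wt fraction C and 1 in ZnF4 fraction C, with medians of -0.43 and 0.12. Flt3, the cytokine receptor of lymphoid progenitors, was at 0.4 RPKM in both ZnF4 libraries and at 10.1 and 1.7 in wt. Its departure therefore came from the wt step. Ly6d, a marker of the earliest B-lineage progenitors, was at 277.4 and 143.4 RPKM in ZnF4 and 233.7 and 46.7 in wt, lower in fraction C in both. Erg, an ETS family factor active in blood stem cells, was at 4.6 and 15.1 RPKM in ZnF4 and 113.0 and 76.9 in wt. It was 2.88-fold higher in ZnF4 fraction C and 1.46-fold lower in wt fraction C, and still lower in ZnF4 fraction C than in any wt or ZnF1 library.

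Among the single genes with the largest upward ZnF4 steps after Enpep were Crhbp, a binding protein of corticotropin-releasing hormone, and Tbx19, a T-box transcription factor. Crhbp was at 3.9 and 23.4 RPKM in ZnF4, 4.1 and 8.1 in wt and 7.8 and 7.1 in ZnF1, so the ZnF4 fraction C library alone was above 10 RPKM. Tbx19 was at 2.6 and 10 RPKM in ZnF4 and at 0.8 or less in the other 4 libraries. Zwilch, a kinetochore gene outside the mitosis list, was at 7.9 and 22.4 RPKM in ZnF4 and 15.8 and 25.5 in wt, and Dctpp1, which cleans the nucleotide pool, at 27.8 and 73.1 in ZnF4 and 69.9 and 127.1 in wt. Myh10, a nonmuscle myosin heavy chain, was at 4.4 and 12.8 RPKM in ZnF4 and 2.7 and 3.6 in wt. Of the 298 genes at least 2-fold higher, 213 were on none of the lists, 101 were under 10 RPKM in both ZnF4 libraries and 17 were small RNAs.

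Among the downward steps, Cacna1e, a calcium channel subunit, was the largest that the naming rule allowed, at 20.8 and 6.1 RPKM in ZnF4 and 15.4 and 8.1 in wt. Col5a3, a collagen chain, was at 62.0 and 25.4 RPKM in ZnF4 and 30.2 and 5.3 in wt. Faim3, now called Fcmr, the receptor for IgM, was at 66.8 and 29.0 RPKM in ZnF4 and 19.0 and 5.4 in wt. All 3 were lower in fraction C in both genotypes. H2-Q6 and H2-Q8 also ranked there, but these class I genes are near-identical copies and their values are uncertain. Of the 64 genes at least 2-fold lower, 28 were small RNAs and 57 were on none of the lists.

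Departures below wt among named genes were led by Nrgn, a calmodulin-binding protein, at 40.0 and 49.7 RPKM in ZnF4 and 13.9 and 51.7 in wt. Rplp1 ranked above it but has near-identical copies and is uncertain. Ppan, a ribosome assembly factor outside the list, was at 28.3 and 22.0 RPKM in ZnF4 and 37.4 and 68.1 in wt. Galk1, the galactose kinase, was at 31.4 and 34.4 RPKM in ZnF4 and 28.1 and 61.2 in wt. In these 3 genes wt fraction C was the highest of the 4 libraries.

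Steps of at least 1.5-fold in opposite directions were found for 58 genes: 45 higher in ZnF4 and lower in wt fraction C, and 13 the reverse, of which 9 were small RNAs. Of the 45, 3 were microRNAs, and of the other 42, 33 had their highest value in the ZnF1 fraction C library and 37 were lower in ZnF4 fraction C than in wt fraction B. The shares of all genes with these 2 traits were not computed, so neither count is read as particular to the 42. The second count also depends on the selection, which required a lower value in wt fraction C than in wt fraction B. Genes of granulocytes were among the 42. Prg2, the major basic protein of eosinophils, was at 5.4 and 30.6 RPKM in ZnF4, 142.9 and 49.8 in wt and 47.8 and 787.4 in ZnF1.

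Several lists of markers of other marrow cells were higher in ZnF4 fraction C than in ZnF4 fraction B. Of 24 myeloid markers, 15 were at least 1.5-fold higher in ZnF4 fraction C and none lower, whereas 10 were lower and none higher in wt fraction C (medians 0.73 and -0.57). Their summed level was 1068.2 and 1860.8 RPKM in ZnF4, 4150.9 and 2910.5 in wt and 1810.6 and 46602.3 in ZnF1. The ZnF4 libraries had less than either wt library, and the ZnF1 fraction C library stood far apart. None of the 24 was at 0 in both ZnF4 libraries. The summed level of 17 erythroid markers was 133.1 and 228.6 RPKM in ZnF4 and 365.6 and 304.8 in wt, with 4 at least 1.5-fold higher in ZnF4 fraction C. For 15 NK and cytotoxic markers it was 3.1 and 10.6 RPKM in ZnF4 and 123.1 and 62.5 in wt; 13 of the 15 were under 1 RPKM in both ZnF4 libraries and 3 were at 0 in both. The 14 plasmacytoid dendritic markers did not share this direction, with sums of 599.4 and 531.0 RPKM in ZnF4 and 382.5 and 328.4 in wt. Most of that sum came from Ptprcap, a CD45-associated protein that other lymphocytes also make, at 529.8 and 481.9 RPKM in ZnF4, and Tlr9, a DNA sensor also found in B cells, was at 45.0 and 24.5. Siglech, the receptor that defines plasmacytoid dendritic cells, stood at 0.1 RPKM in both ZnF4 libraries and at 24.2 and 7.5 in wt, and 8 of the 14 were under 1 RPKM in both ZnF4 libraries. The part of such cells in the cell cycle, progenitor, MHC class II, interferon response, and homing and adhesion results was not tested. All 20 T-lineage and Notch genes together were at 94.0 and 110.6 RPKM in ZnF4 and 159.2 and 149.8 in wt. Most of the ZnF4 sum came from Lck, at 32.3 and 52.4 RPKM, and Notch1, at 30.9 and 19.9. Of the 20 genes, 12 were under 1 RPKM in both ZnF4 libraries.

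**Figure D5:**
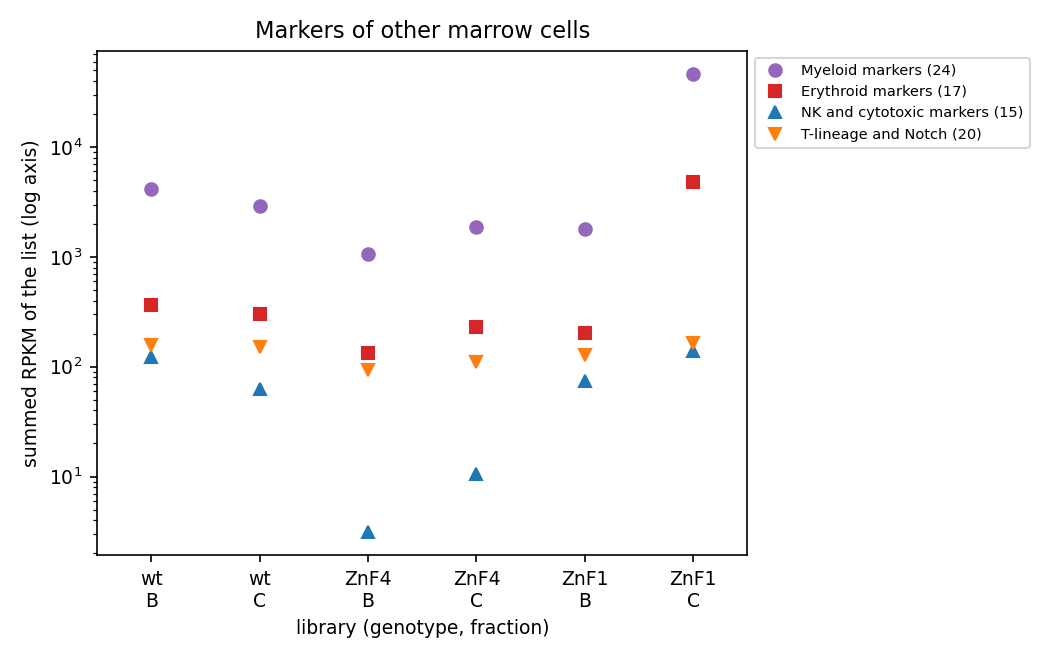
Summed RPKM of each marker list (log y axis; number of genes in the table in brackets) in the 6 libraries (x axis). Myeloid, erythroid and NK sums are higher in ZnF4 fraction C than in ZnF4 fraction B but below both wt libraries, and ZnF1 fraction C has by far the highest myeloid sum (46602.3).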

How the data were processed

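RNA of sorted proB cells was sequenced in 6 libraries, 1 for each of 3 genotypes and 2 fractions, and groups were taken from the sample titles. The deposited table holds RPKM per RefSeq transcript, which the authors computed, per the file headers, and rounded to 0.1. The submitters' processing notes name mm9, TopHat and bedtools, with no versions. The denominator, strand use and the division of shared reads were not given in the sources used here. Values of genes with near-identical copies, such as histones, Npm1 and small RNAs, are therefore uncertain, and a value of 0 says no more than that. Whole reads could not be recovered from the rounded values, so depth is unknown and no counting interval is given. The labels name no batch.

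The table had 26532 entries, of which 1 had no gene name and was left out. It held 0 columns belonging to samples outside the series. The 26531 transcripts carried 22098 symbols, and each symbol was represented by its transcript with the highest mean. Genes were kept from a mean of 1 RPKM upward, which left 10943. Steps were differences of log2(RPKM + 1), with a pseudocount of 1, computed with Python 3.11.15 and pandas 2.3.3 in a script tested on simulated data. Genes past 2-fold and 1.5-fold were counted; no test was possible. Promoters were the first listed per symbol in RefSeq's GRCm38.p6 table.

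The 27 gene lists (633 entries, 626 in the table) were written by hand for this work. The members and lists were chosen with earlier results of these data known. Named genes are the sort markers and Ikzf1; the 12 genes with the largest ZnF4 step and the 12 with the largest departure in each direction, reaching 10 RPKM and leaving out small RNAs, clone names and sex-linked genes; and members at the extremes of each list or needed to account for it. Some of these are not described. Alternatives were another pseudocount, other filters on low values, a sum over transcripts and 2 rescalings.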

Additional observations from a re-analysis of the deposited data

Results flagged for a closer look

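The lists and genes here had ZnF4 and wt steps in opposite directions. Lists are those whose median step was at least 0.3 in size in both genotypes. Other lists had opposite medians of smaller size in ZnF4, among them early progenitor genes (0.12 in ZnF4 and -0.43 in wt) and T-lineage and Notch genes (0.22 and -0.52). Single genes are those allowed by the naming rule that were at least 2-fold apart in ZnF4 and 1.5-fold in wt and reached 10 RPKM in a ZnF4 or wt library. The difference was not tested, since each step rests on 1 library a side, and values are the ZnF4 step minus the wt step on the log2(RPKM + 1) scale. For lists, the median departure was 1.22 for myeloid markers, 1.01 for NK and cytotoxic markers and 0.68 for erythroid markers. Under 1 RPKM in both ZnF4 libraries were 13 of 15 NK, 11 of 26 early progenitor and 12 of 20 T-lineage and Notch genes. The counts were 4 of 17 for erythroid and 3 of 24 for myeloid markers. For such genes the ZnF4 step is a small difference near 0 RPKM, and the departure mostly reflects the wt step.

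Among single genes, the departure was 3.81 for Prg2, 2.71 for Ctsg and 2.53 for Gimap4, a GTPase of lymphocytes at 0.9 and 5.3 RPKM in ZnF4 and 30.6 and 17.1 in wt. It was 2.50 for Ear7, 2.26 for Ccl5 and 2.21 for Ear6, which are listed at 0 in ZnF4 fraction B, so that no fold is given and the values depend on the pseudocount (4.13, 3.71 and 3.74 with 0.25); Ear6 and Ear7 are near-identical copies and uncertain. Values between 1.7 and 2.0 were found for Ifitm6 (2.0), Mpo (1.95), Mcpt8 (1.95), Steap4 (1.93), Alox5ap (1.91), Retnlg (1.82), Nkg7 (1.82), Fcer1g (1.76), Prtn3 (1.74) and Ccl6 (1.71). Mpo, Prtn3 and Ctsg encode proteins of neutrophil granules. Mpo was at 13.8 and 30.0 RPKM in ZnF4 fractions B and C, 83.6 and 44.8 in wt and 36.4 and 564.5 in ZnF1.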

How the results depend on the processing

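No paired analysis was possible because each group holds 1 library and the replicate numbers only name samples. No value in the alternatives changed sign among those at least 1.5-fold in size. With a pseudocount of 0.25, genes at least 2-fold higher and lower numbered 524 and 119 in ZnF4, 77 and 208 in wt and 505 and 117 for the departure, and the NK median departure was 1.60. With a mean of at least 5 RPKM, 34 were lower in ZnF4, 19 higher in wt and 18 departed downward, the NK median was 1.64, and no stroma gene was left. Median rescaling gave 165 genes higher in ZnF4 and 8 replication genes at least 1.5-fold higher in wt. Upper quartile rescaling gave 186 genes higher in ZnF4, and in wt 0 mitosis, 6 replication and 15 ribosome biogenesis genes at 1.5-fold. An alternative chosen after seeing the data, transcripts of at least 300 bases, left 36 genes lower in ZnF4 and 26 departing downward.

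The mitosis count in ZnF4 was 63 in all settings and the median departure 0.70 to 0.82. The replication count was 43 to 49 and its median departure 0.32 to 0.42, and that of ribosome biogenesis was -0.29 to -0.19. Of 796 values of single genes under the alternatives, 785 moved by less than 1.5-fold. Between-animal variation and counting error cannot be measured with 1 library a group and no read numbers.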

Other observations

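Interferon response genes were lower in wt fraction C and level in ZnF4, with medians of -0.42 and -0.06 over 26 genes. Of these, 7 were at least 1.5-fold lower in wt fraction C and 1 in ZnF4 fraction C, where 4.4% and 3.36% of all genes were. Irf7, a regulator of interferon genes, was at 2.2 and 2.9 RPKM in ZnF4 and 17.7 and 10.1 in wt, low in both ZnF4 libraries. Irf7 is also on the plasmacytoid dendritic list. Ifit2, an interferon-induced antiviral protein, was at 2.5 and 5.3 RPKM in ZnF4 and 9.2 and 10.1 in wt. Homing and adhesion genes had medians of 0.05 in ZnF4 and -0.33 in wt, and the ZnF4 sign flipped under both rescalings. Itgal, the integrin chain of LFA-1, was at 7.1 and 11.0 RPKM in ZnF4 and 39.9 and 26.6 in wt. S1pr1, a receptor for exit from tissues into blood, was at 20.4 and 12.1 RPKM in ZnF4 and 18.7 and 7.9 in wt, lower in fraction C in both.

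Immediate early genes had medians of -0.24 in ZnF4 and -0.37 in wt, against 2.28 in ZnF1, where 16 of 20 were at least 1.5-fold higher. Jund, a subunit of the AP-1 factor, was at 18.7 and 8.0 RPKM in ZnF4 and 9.3 and 5.5 in wt. Targets of p53 had medians of -0.13 in both ZnF4 and wt. Interleukin-7 and STAT5 response genes had 4 of 21 at least 1.5-fold higher and 1 lower in ZnF4, and 1 higher and 6 lower in wt, where 11.5% and 3.36% of all genes were so in ZnF4 and 4.71% and 4.4% in wt. Mature B and plasma cell genes had 1 of 12 at least 1.5-fold lower in ZnF4 and 5 in wt, with medians of -0.22 and -0.32. Of 13 plasmacytoid dendritic genes, 1 was at least 1.5-fold lower in ZnF4 and 11 in wt, but 8 of the 14 listed were under 1 RPKM in both ZnF4 libraries and could hardly be lower on this scale. Of 6 stroma and endothelium genes kept, 1 was at least 1.5-fold higher in ZnF4 and 2 in wt. These are too few to set against the shares of all genes, and 11 of the 13 listed were under 1 RPKM in both ZnF4 libraries. Thy1, a T-lineage antigen, was at 2.5 and 9.0 RPKM in ZnF4 and 12.6 and 8.5 in wt, so that the fraction C libraries were level. Thy1 does not stand for its list, since 12 of the 20 genes were under 1 RPKM in both ZnF4 libraries. Among these, Cd7 was at 0.2 and 0.7 RPKM in ZnF4 and 18.6 and 7.8 in wt.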
